A study of Homo sapiens with 6 samples.

Results

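The replication-dependent histone genes are the genes for the linker histone H1 and the core histones H2A, H2B, H3 and H4 that supply new chromatin during DNA replication. They were taken by gene symbol from the deposited gene tables, as every row named H1-1 to H1-6 or carrying an H2AC, H2BC, H3C or H4C symbol with a number. The symbol rule found 69 rows among 62754 genes, made up of 6 H1, 17 H2A, 18 H2B, 13 H3 and 15 H4 rows. The rule itself uses symbols and no measured value.

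The libraries came from HUDEP-2, an immortalised human erythroid progenitor line, kept in serum-free medium with 3 units/ml EPO, 50 ng/ml SCF, 1 µg/ml doxycycline and 1e-06 M dexamethasone. One group of 3 libraries received a lentivirus with an shRNA against MEN1 (labelled MEN1sh2, genotype MEN1 knockdown), and the other group of 3 received a non-targeting control shRNA (labelled Controlsh, genotype WT). Both groups were selected with puromycin at 2 µg/ml from 24 h after infection for 48 h, and RNA was profiled 72 h after transduction, after poly(A) selection and with a directional library kit. The MEN1 group used 1 hairpin in 1 line, so loss of menin and other effects of this hairpin cannot be told apart. The titles call the 3 libraries of a group biological replicates without saying what was repeated, so the p-values measure the spread between these libraries. The title of the series names the MLL1 complex and the repression of fetal hemoglobin as its subject.

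Menin, the product of MEN1, is a scaffold subunit of the MLL1 and MLL2 histone methyltransferase complexes. Replication-dependent histone genes lie in clusters, most lack introns, and their main mRNAs end in a conserved stem-loop bound by the protein SLBP instead of a poly(A) tail. Some of these genes also make polyadenylated mRNAs that run past the stem-loop, and such forms are known from differentiating cells and from cells that have left the cycle. The values here come from poly(A)-selected RNA and therefore show polyadenylated forms, together with any other form that the selection retained. In bulk RNA, a changed number of cells in S phase and a changed amount of histone RNA per cell cannot be told apart.

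The promoters of these genes carry short elements that differ between the families, and the stretches before 4 linker histone genes are shown because the RNA of 1 of them rose and that of the others did not pass the test. Each line gives the 140 bases that precede the RefSeq start site in build GRCh38.p14, 5′ to 3′ on the strand of the gene, with AAACACA (the H1 element) and CCAAT or its reverse ATTGG in capitals. H1-2 is at chr6:26056471-26056610 on the minus strand, H1-3 at chr6:26234988-26235127 on the minus strand, H1-4 at chr6:26156189-26156328 on the plus strand and H1-5 at chr6:27867589-27867728 on the minus strand.
H1-2: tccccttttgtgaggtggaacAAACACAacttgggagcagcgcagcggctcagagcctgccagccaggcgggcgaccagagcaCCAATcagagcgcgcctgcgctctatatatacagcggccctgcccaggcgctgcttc
H1-3: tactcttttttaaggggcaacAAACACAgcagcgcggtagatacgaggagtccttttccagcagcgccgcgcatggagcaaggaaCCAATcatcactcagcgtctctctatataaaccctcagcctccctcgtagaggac
H1-4: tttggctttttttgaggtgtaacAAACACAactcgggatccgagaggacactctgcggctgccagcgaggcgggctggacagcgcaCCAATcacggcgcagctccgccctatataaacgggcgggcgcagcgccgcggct
H1-5: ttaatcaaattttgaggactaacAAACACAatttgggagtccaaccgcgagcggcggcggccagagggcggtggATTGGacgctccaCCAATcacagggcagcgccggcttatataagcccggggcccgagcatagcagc
All 4 stretches hold AAACACA on the strand of the gene, beginning 119 bases before the start site in H1-2 and H1-3 and 117 bases before it in H1-4 and H1-5. CCAAT begins 57, 55, 54 and 53 bases before the start in H1-2, H1-3, H1-4 and H1-5, and H1-5 holds a further CCAAT on the other strand.

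H2BC12 and H2BC14 are shown as the H2B genes with the largest positive and the only negative difference of their family. The capitals mark CCAAT or ATTGG, the octamer ATTTGCAT, which the factor POU2F1 is known to bind, and TATAAA. H2BC12 is at chr6:27146856-27146995 on the minus strand and H2BC14 at chr6:27814882-27815021 on the plus strand.
H2BC12: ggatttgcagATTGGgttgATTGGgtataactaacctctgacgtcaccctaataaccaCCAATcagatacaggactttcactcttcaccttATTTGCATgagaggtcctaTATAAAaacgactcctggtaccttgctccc
H2BC14: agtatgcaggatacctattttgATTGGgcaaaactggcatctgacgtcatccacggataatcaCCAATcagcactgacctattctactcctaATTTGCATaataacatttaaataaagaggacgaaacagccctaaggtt
The octamer begins 49 bases before the start site in H2BC12 and 48 bases before it in H2BC14. TATAAA was found in the H2BC12 stretch, 30 bases before the start, and these letters are not in the H2BC14 stretch. H4C8 at chr6:26285535-26285674 on the minus strand and H4C5 at chr6:26204470-26204609 on the plus strand are shown as the H4 gene with the largest difference and an H4 gene with a difference near 0. Capitals mark GGTCCG, which holds the core of the H4 element bound by HINFP.
H4C8: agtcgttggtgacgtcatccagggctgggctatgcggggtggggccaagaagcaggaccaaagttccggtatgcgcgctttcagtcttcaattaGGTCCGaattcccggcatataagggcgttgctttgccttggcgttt
H4C5: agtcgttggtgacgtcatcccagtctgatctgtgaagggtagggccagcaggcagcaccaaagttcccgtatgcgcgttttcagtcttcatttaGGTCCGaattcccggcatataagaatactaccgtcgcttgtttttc
GGTCCG begins 46 bases before the RefSeq start in both genes. The RefSeq start of H4C8 lies 104 bases from the start of its row in the deposited tables.

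Counted over the 250 bases before the start on both strands, each motif by itself, 68 RefSeq promoters matched 64 of the 69 members. CCAAT was in 58 of the 68, among them all 20 H2B, all 16 H2A, all 13 H3 and all 6 H1 promoters but only 3 of 13 H4 promoters, and in 32.0% of all 35116 promoters. ATTTGCAT was in 15 of 20 H2B, 11 of 16 H2A and 1 of 13 H3 promoters, in no H1 or H4 promoter, and in 1.63% of all promoters. In 12 pairs an H2A and an H2B gene lie head to head with starts 170 to 251 bases apart, so their windows share much sequence. A motif there can count for both genes, and the H2A and H2B counts are not independent. GGTCCG was in 12 of 13 H4 promoters and in 9.43% of all promoters, and AAACACA in all 6 H1 promoters and in 4.82% of all promoters. TATAAA was in 45 of the 68 and in 10.7% of all promoters. These matches are letters in a window and not measured binding sites.

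The stem-loop that ends the replication-dependent mRNA is shown for 6 genes with a difference of at least 2-fold, because their annotated transcripts hold it and run on past it. Each line gives the stem-loop in capitals with 5 bases on each side, read from a GENCODE v29 transcript on the sense strand and written with T.
H2AC6: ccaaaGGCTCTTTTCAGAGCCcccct
H2AC25: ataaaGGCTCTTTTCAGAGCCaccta
H2BC4: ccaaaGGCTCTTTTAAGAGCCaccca
H3C10: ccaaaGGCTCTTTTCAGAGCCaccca
H4C8: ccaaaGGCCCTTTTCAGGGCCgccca
H4C14: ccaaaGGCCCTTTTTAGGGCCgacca
The search used the 16-base histone stem-loop consensus, with 3 positions free. A match was in the v29 transcripts of 28 of the 65 members that this annotation holds, with 11 H2B, 8 H4, 5 H2A, 4 H3 and no H1 genes, and in 0.0281% of all 206694 v29 transcripts. The letters found were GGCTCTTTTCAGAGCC in 15 members, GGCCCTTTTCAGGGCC in 5, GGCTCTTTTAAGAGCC in 4, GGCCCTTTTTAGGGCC in 3 and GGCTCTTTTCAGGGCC in 1. In 22 of the 28 genes a transcript ran more than 100 bases beyond the stem-loop, 1128 bases in H2AC6 and 1167 bases in H4C14. The v29 models of H1-2 and H2BC12 hold no match, which says only that these letters are not in those models.

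The polyadenylated RNA of many replication-dependent histone genes was higher with the MEN1 shRNA, led by H1-2 and H2BC12, and that of none was lower by the test. Levels are given in TPM, transcripts per 1000000, a measure per length in which all genes of a library sum to that number. Differences are log2 fold changes of TPM + 1, MEN1 shRNA minus control shRNA, which understate the fold of genes near 1 TPM, and a gene counts as changed at a Benjamini-Hochberg adjusted p under 0.05 in a limma fit over 14294 genes. Of the 69 members, 61 had at least 1 TPM in at least 3 of the 6 libraries and were tested. The test called 34 of them higher, against 22.1% of all genes tested, and 0 lower, against 31.5% of all genes tested. At an unadjusted p under 0.05 the counts were 35 higher and 1 lower. The median difference was 0.62 over the members tested and -0.07 over all genes tested, so the median member stood above the median gene. The lowest MEN1 shRNA library was above the highest control library in 32 members, against 25.8% of all genes tested, and the reverse held for 0 members, against 35.9%. Groups of all genes tested failed to overlap in either direction in 61.8%. A rise of at least 2-fold was seen in 14 members, against 4.96% of all genes tested. H3C6 alone had at least 1 TPM in every MEN1 shRNA library and in no control library, with a control mean of 0.516 TPM. H2AC7, H2BC6, H2BC21, H4C1 and H4C16 had at least 1 TPM in every MEN1 shRNA library but not in every control library. Their control libraries alone would not have met the filter, and all of them except H4C16 were called higher, as was H3C6.

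**Figure D1:**
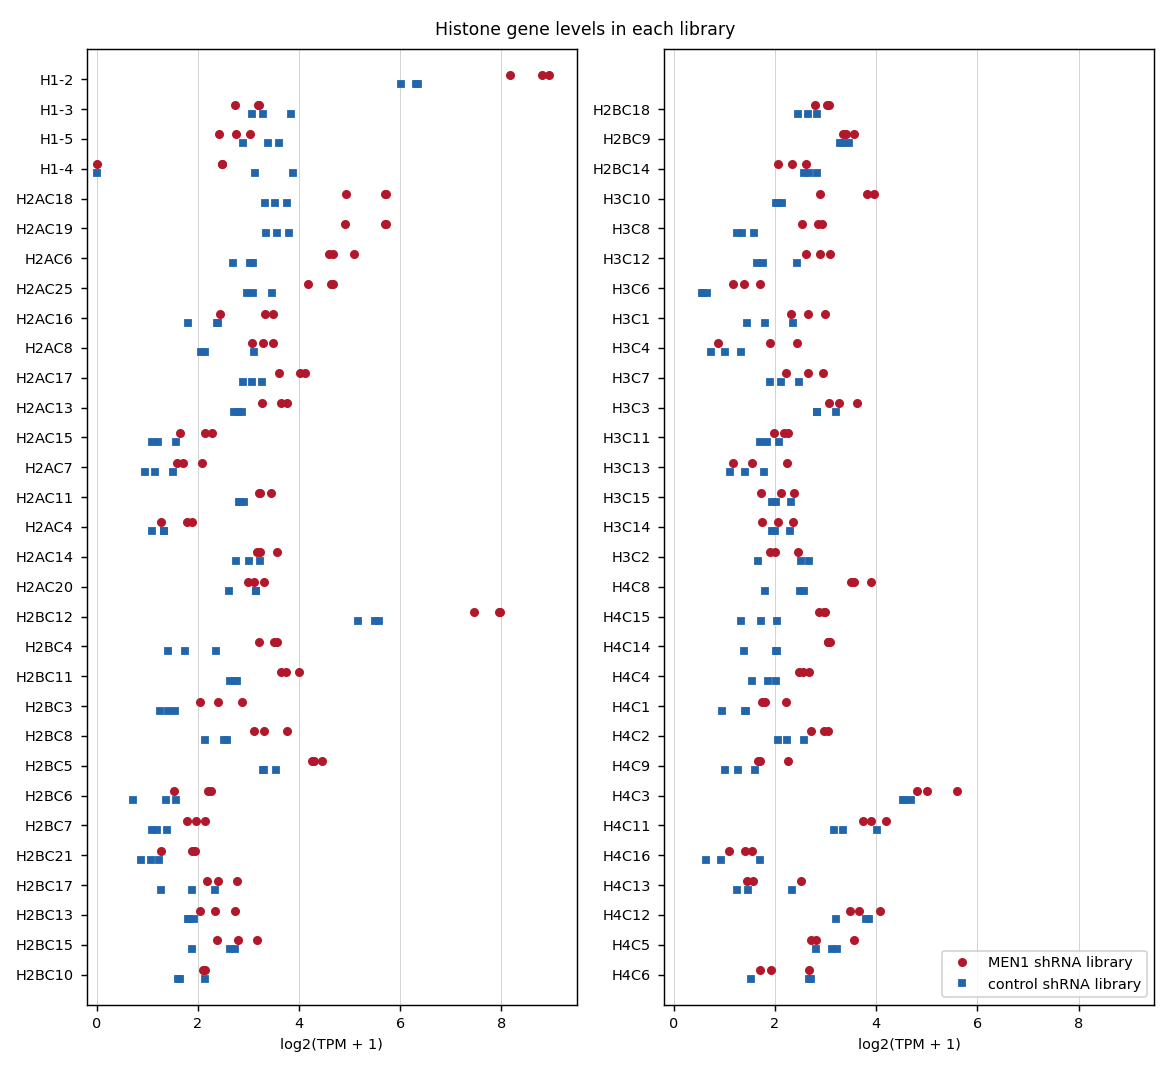
Each row is 1 replication-dependent histone gene that was tested, with log2(TPM + 1) on the horizontal axis, red circles for the 3 MEN1 shRNA libraries and blue squares for the 3 control shRNA libraries. H1-2 and H2BC12 stand furthest right and their groups are furthest apart, while most other genes lie under 10 TPM in both groups.

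Summed over all 69 members, the level was 891, 1233 and 1325 TPM in MEN1 shRNA replicates 1, 2 and 3 and 448, 359 and 402 TPM in control replicates 1, 2 and 3. The means were 1150 ± 229 and 403 ± 44.3 TPM (SD, n = 3 each), a ratio of 2.85. Much of this sum came from 2 genes: H1-2 and H2BC12 together held 54.7% ± 2.45 of it with the MEN1 shRNA and 28.9% ± 1.65 in the controls. Without them the sums were 517 ± 79.0 and 286 ± 30.6 TPM, a ratio of 1.81. The ratio of the summed means was 4.22 for H1, 3.21 for H2B, 2.56 for H2A, 1.68 for H3 and 1.52 for H4. H1-2 alone had means of 409 and 74.5 TPM within H1 sums of 425 and 101 TPM. The other H1 genes tested, H1-3, H1-4 and H1-5, had lower means with the MEN1 shRNA, so the H1 ratio describes H1-2. These sums are descriptions without a test.

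**Figure D2:**
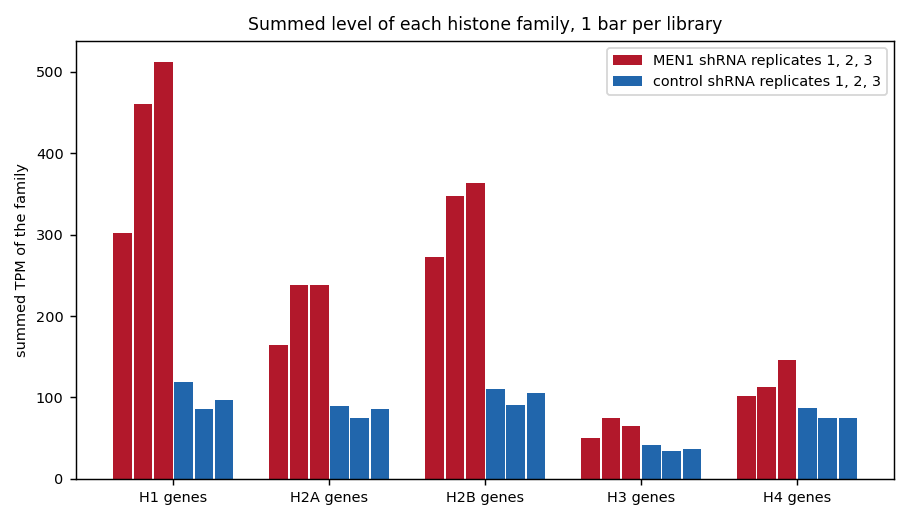
Bars give the summed TPM of all rows of a histone family, 1 bar per library, red for MEN1 shRNA replicates 1 to 3 and blue for control replicates 1 to 3. Every red bar is taller than every blue bar of its family, and the H1 bars differ most, with a ratio of the means of 4.22. Most of the H1 sum is H1-2, while H1-3, H1-4 and H1-5 had lower means with the MEN1 shRNA.

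Most members were scarce, and 43 of the 69 were under 10 TPM in every library. Among the 46 tested members whose group means were both under 10 TPM, 21 were called higher, against 22.1% of all genes tested. The share of all genes was not split at this cut. Split by control level, 16 of 25 members with a mean under 3 TPM, 10 of 20 between 3 and 7 TPM and 8 of 16 above that were called higher. The shares of all genes called higher at these levels were 22.8%, 19.3% and 22.4%. The members' share was above that of all genes in each of these ranges. The ranges are cut on the control mean, which is also 1 side of each difference. The lowest range holds H3C6, H2AC7, H2BC6, H2BC21, H4C1 and H4C16, whose control libraries alone would not have met the filter. All of these except H4C16 were among its higher members. In that range all 25 members had positive differences and the median of all genes was 0.128, so its share is only a description. MEN1 shRNA replicate 1 was the lowest of its group in 24 of the 34 higher members, and replicate 3 was the highest in 21.

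Of the linker histone genes, 1 of 4 tested was higher, or 25.0%, close to the 22.1% of all genes tested. H1-2, which encodes a somatic H1 subtype, was the most abundant member, at 288, 444 and 494 TPM in MEN1 shRNA replicates 1 to 3 and at 80.9, 63.7 and 78.9 TPM in control replicates 1 to 3. The groups did not overlap, and the lowest MEN1 shRNA library was more than 3 times the highest control library. H1-2 rose by 2.41 ± 0.196 (SE, adjusted p = 7.29e-05), the largest difference among the members, and it stayed between 2.26 and 2.64 under the alternatives of the processing. Behind these values stood about 606 to 754 read pairs per control library and 2416 to 4025 per MEN1 shRNA library, estimated from the deposited coverage. H1-2 is at chr6:26055740-26056470 on the minus strand, and none of the 75-base windows of its v29 model recurs in another member.

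H1-3, H1-4 and H1-5, which encode the other somatic H1 subtypes tested here, did not pass the test. H1-3 was at 5.65, 8.11 and 8.24 TPM in the MEN1 shRNA libraries and at 13.4, 7.41 and 8.76 TPM in the controls, a difference of -0.36 (adjusted p = 0.207). H1-5 was at 4.37, 7.12 and 5.73 TPM against 11.1, 6.47 and 9.49 TPM, a difference of -0.56 (adjusted p = 0.0586). Both genes had overlapping groups and lower MEN1 shRNA means, the opposite sign to H1-2. H1-5 passed the threshold as lower without MEN1 shRNA replicate 2 (-0.71, adjusted p = 0.0412) and without control replicate 2 (-0.76, adjusted p = 0.018). H1-4 was listed at 4.55, 0 and 4.53 TPM against 13.7, 7.77 and 0 TPM, a spread within groups that leaves its difference of -0.69 with an SE of 1.06. H1-6, a testis H1 gene, had group means of 0.274 and 0.0721 TPM and was not tested, and neither was H1-1.

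Of the H2A genes, 11 of 14 tested were higher, against 22.1% of all genes tested, and none had a negative difference. H2AC18 and H2AC19, near-identical H2A genes on chromosome 1, led the family with differences of 1.91 and 1.87. Their TPM values differed by 0.393% to 3.37% within a library, so the split of reads between them is uncertain and their sum is the safer value. The count of higher H2A genes takes them as separate genes. The sum was 58.2, 102 and 104 TPM with the MEN1 shRNA and 21.2, 18.3 and 25.5 TPM in the controls, a rise of 1.94 ± 0.228 (SE, adjusted p = 0.000315). H2AC6, at chr6:26124145-26139116, was at 23.2, 33.1 and 24.5 TPM against 7.20, 5.46 and 7.46 TPM. It rose by 1.85 ± 0.162 (SE, adjusted p = 9.34e-05), with every MEN1 shRNA library above 3 times the highest control.

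H2AC25, an H2A gene on chromosome 1 outside the main clusters, was at 17.1, 23.9 and 24.6 TPM against 10.1, 7.46 and 6.85 TPM and rose by 1.32 (adjusted p = 0.000595). The other 7 higher H2A genes, H2AC7, H2AC8, H2AC11, H2AC13, H2AC15, H2AC16 and H2AC17, rose by 0.45 to 0.88. Among them, H2AC17 was at 11.2, 15.3 and 16.3 TPM against 7.36, 8.58 and 6.42 TPM, and H2AC11 at 8.23, 9.90 and 8.42 TPM against 5.98, 6.11 and 6.53 TPM. The groups of both genes stayed apart, while those of H2AC8 overlapped because control replicate 1, at 7.64 TPM, was above MEN1 shRNA replicate 1, at 7.41 TPM. H2AC4, H2AC14 and H2AC20 had differences of 0.40, 0.32 and 0.16 and did not pass. H2AC1 and H2AC12 were listed at 0 in every library, and H2AC21, with means of 1.30 and 0.790 TPM, was not tested.

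The H2B family held 10 higher genes among 16 tested, against 22.1% of all genes tested. H2BC12, the second most abundant member, was at 175, 247 and 250.1 TPM in the MEN1 shRNA libraries and at 46.8, 35.0 and 44.5 TPM in the controls. It rose by 2.38 ± 0.161 (SE, adjusted p = 3.88e-05), and its difference from H1-2 in log2 fold change was smaller than either SE. H2BC12 lies at chr6:27146361-27146855 on the minus strand, and 8.14% of the 75-base windows of its v29 model recur in another member, most of them in H2BC17. Its near copy H2BC12L on chromosome 21, which is not a member, had means of 2.16 and 0.545 TPM, far below H2BC12. A log2 fold change of at least 2 was reached by H1-2 and H2BC12 among the members and by 0.847% of all genes tested.

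H2BC4 was at 10.4, 8.23 and 10.8 TPM against 1.67, 2.36 and 4.11 TPM and rose by 1.59 (adjusted p = 0.000975). H2BC5 was tightly spread, at 18.8, 18 and 20.8 TPM against 10.7, 8.76 and 8.84 TPM, and rose by 0.96 ± 0.104 (SE, adjusted p = 0.000231). H2BC11 was at 11.5, 12.4 and 15 TPM against 5.86, 5.65 and 5.18 TPM and rose by 1.08 (adjusted p = 0.00023). In all 3 genes the groups were clearly apart. H2BC3, H2BC6, H2BC7, H2BC8, H2BC13 and H2BC21 rose by 0.52 to 1.04 at group means under 10 TPM.

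H2BC14 and H2BC9 were the H2B genes with the least sign of a rise. H2BC14 was at 4.03, 3.17 and 5.08 TPM against 5.41, 4.92 and 6.15 TPM, a difference of -0.36 (adjusted p = 0.0962). Without MEN1 shRNA replicate 3 the difference was -0.50 and passed (adjusted p = 0.0351), so whether H2BC14 passed depended on that library. H2BC9 was at 10.8, 9.59 and 9.20 TPM against 8.79, 9.21 and 9.96 TPM, a difference of 0.07 ± 0.0998 (SE, adjusted p = 0.561). H2BC10, H2BC15, H2BC17 and H2BC18 had differences of 0.31 to 0.61 and did not pass. H2BC1 was listed at 0 in every library, and H2BC26 was above 0 only in control replicate 1, at 0.151 TPM.

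Of the H3 genes, all 13 were tested and 5 were higher, against 22.1% of all genes tested. H3C10 was at 6.40, 14.6 and 13.1 TPM in the MEN1 shRNA libraries and at 3.37, 3.04 and 3.16 TPM in the controls. It rose by 1.49 (adjusted p = 0.00226), and MEN1 shRNA replicate 1 lay closer to the controls than to the other MEN1 shRNA libraries. H3C8 was at 4.78, 6.57 and 6.16 TPM against 1.38, 1.54 and 1.98 TPM and rose by 1.37 (adjusted p = 0.000281). H3C12, H3C6 and H3C1 rose by 0.92, 0.82 and 0.79, and the groups of H3C1 overlapped.

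The other 8 H3 genes lay between -0.16 and 0.71 and did not pass. H3C3, the most abundant of them, was at 7.40, 11.3 and 8.56 TPM against 8.23, 6.11 and 6.13 TPM. H3C4 had the largest difference of these, 0.71, with MEN1 shRNA replicate 3, at 0.839 TPM, among its lowest libraries. Without that library the difference of H3C4 was 1.14 and passed (adjusted p = 0.0103). H3C14 and H3C15 are copies that share all their 75-base windows, and their sum was 4.64, 6.5 and 8.29 TPM against 7.86, 5.67 and 6.07 TPM, a difference of -0.03 (adjusted p = 0.914).

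Of the H4 genes, most of which encode the same core protein, 7 of 14 tested were higher, against 22.1% of all genes tested. This count takes H4C14 and H4C15 as separate genes. H4C8 was at 10.3, 13.9 and 10.8 TPM against 2.46, 4.91 and 4.60 TPM and rose by 1.37 (adjusted p = 0.00139). H4C14 and H4C15, near-identical genes on chromosome 1, summed to 14, 13.6 and 14.5 TPM against 6.23, 3.16 and 5.36 TPM, a rise of 1.38 (adjusted p = 0.000764). H4C3, the most abundant H4 gene, was at 26.8, 31.2 and 47.4 TPM against 22.1, 24.7 and 22.3 TPM and rose by 0.55 (adjusted p = 0.0401). The most abundant H4 gene thus had the smallest of the rises in its family. H4C1, H4C2 and H4C4 rose by 0.62 to 0.76.

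H4C5 showed no difference that could be told from the spread, at 6.03, 5.51 and 10.7 TPM against 8.30, 7.69 and 5.98 TPM (-0.02 ± 0.232, SE). H4C5 and the higher gene H4C8 share the GGTCCG element at the same distance from the start, as printed above. H4C11 and H4C12, whose models share most of their 75-base windows with each other, had differences of 0.43 and 0.12. H4C9 was higher in every MEN1 shRNA library than in every control, but its difference of 0.58 missed the threshold (adjusted p = 0.063). H4C6, H4C13 and H4C16 had differences of -0.20, 0.16 and 0.26, and H4C7 was listed at 0 in every library.

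**Figure D3:**
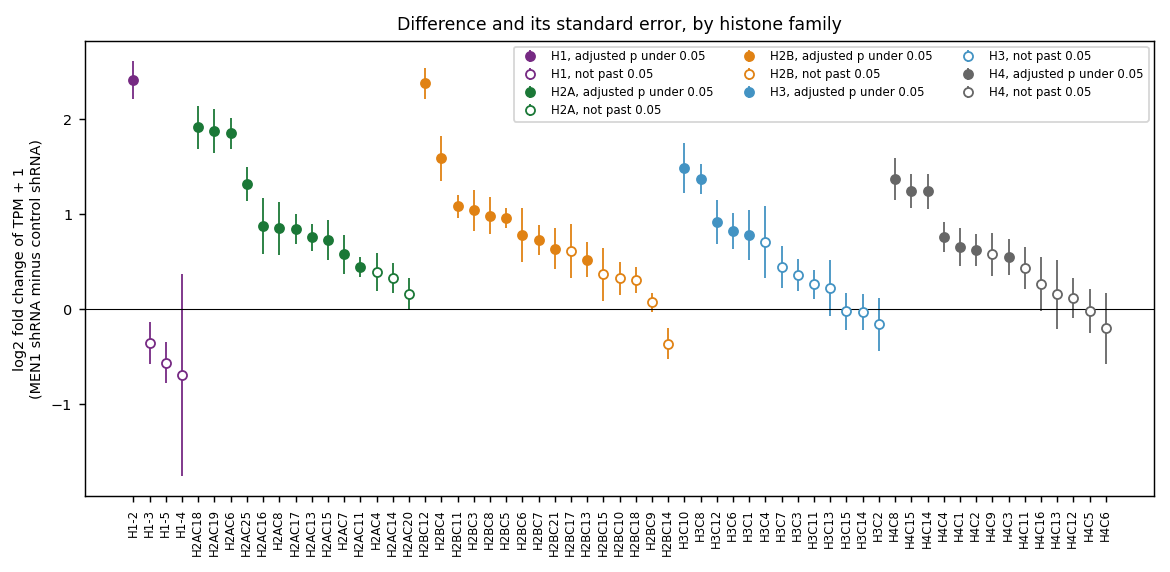
Points give the log2 fold change of TPM + 1 (MEN1 shRNA minus control shRNA) of each tested histone gene, grouped and coloured by family, and bars give standard errors from limma. Filled points passed an adjusted p of 0.05, and all 34 of them lie above 0, from 0.45 in H2AC11 to 2.41 in H1-2.

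The calls differed in how well they held. Of the 34 higher members, 22 passed under every alternative of the processing that tested them, and 0 of the 34 changed sign. A filter at a mean TPM of 5 tested 15 of these 22 and left out the other 7, H2BC3, H2BC7, H3C6, H3C8, H4C4, H4C14 and H4C15. H2AC7, H2AC8, H2AC15, H2AC16, H2BC6, H2BC13, H2BC21, H3C1, H4C1, H4C2 and H4C3 each lost the call when some single library was left out, and H3C12 lost it without the filter on low values and at a threshold of 0.01. Leaving out 1 library at a time gave 26 to 32 higher members, while 18.5% to 21.9% of all genes tested were higher. The 26 came from leaving out MEN1 shRNA replicate 2 and from leaving out control replicate 2.

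H2A and H2B genes often lie head to head and share the stretch between their starts. The tables hold 12 such pairs, with starts 170 to 251 bases apart, and in 9 of them both genes were tested. Both genes were higher in 5 pairs, 1 gene alone was higher in 3 pairs, and neither was in the pair H2AC14 and H2BC14. For comparison, 11 of 14 H2A genes, 10 of 16 H2B genes and 22.1% of all genes tested were higher. Whether paired genes changed together more than other H2A and H2B genes was not tested. In the pair H2AC6 and H2BC4 both genes rose by more than 1.5 on the log2 scale. H2AC12 was listed at 0 in every library while H2BC12, whose start is 251 bases away, had a mean of 224 ± 42.7 TPM with the MEN1 shRNA. Likewise H2AC25 had means of 21.8 and 8.14 TPM while its partner H2BC26 had 0 and 0.0502 TPM. In this poly(A)-selected RNA, the genes of a pair had similar levels in some pairs and very unequal levels in others. What sets these levels was not tested.

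**Figure D4:**
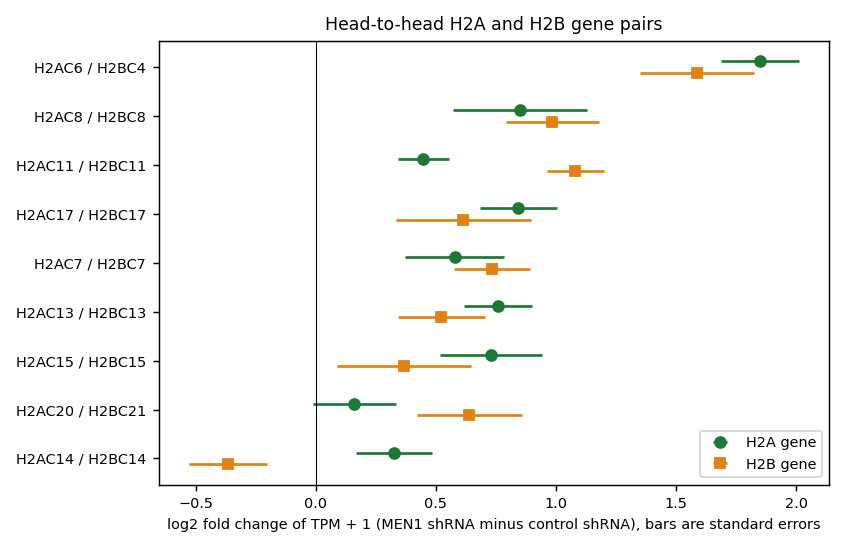
Each row is a head-to-head pair in which both genes were tested, with the log2 fold change of the H2A gene (green circle) and of the H2B gene (orange square) and standard errors as bars. The pair H2AC6 and H2BC4 lies furthest right, and H2AC14 and H2BC14 lie on opposite sides of 0.

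Higher members were found on both chromosomes that hold a cluster. On chromosome 6, 28 of 49 tested members were higher, and on chromosome 1, 6 of 11, against 22.1% of all genes tested. H4C16, the member on chromosome 12, did not pass. Rows that span more than 1000 bases, which hold longer or spliced transcripts, included 13 higher of 16 tested, with a median difference of 1.02. Shorter rows included 21 higher of 45 tested, with a median of 0.52. H1-2 and H2BC12 are both short rows of under 1000 bases. Among the 27 tested members with a stem-loop in v29, 18 were higher, and among the 21 tested members with a transcript running more than 100 bases past it, 13 were. For comparison, 55.7% of all members tested and 22.1% of all genes tested were higher. The share of all genes was not split by row span or stem-loop, and no difference between these groups of members was tested.

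Overlap and similarity limit some of these values. Another row overlaps 31 members, 21 of them on the same strand, and the deposited tables do not say whether reads were counted by strand. The H2BC4 row spans H4C3 and H1-6, and the H3C12 and H2AC17 rows overlap on the same strand. H2BC18 overlaps FCGR1A, a gene on the other strand with means of 105 and 40.8 TPM. A row without a symbol, ENSG00000291336, holds 21 members of chromosome 6 within its span and was at 0 to 1.84 TPM. Of the 65 members in v29, 43 have no 75-base window that recurs in another member, and 9 share more than 50% of theirs. The part of overlapping rows in the differences was not tested.

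The replacement and variant histones, many of which are made outside S phase from polyadenylated mRNAs, also moved. Of 12 such genes, 11 were tested, 6 were higher and 1 was lower, with a median difference of 0.45, against 22.1% higher, 31.5% lower and a median of -0.07 over all genes tested. H2AX, which marks DNA breaks when phosphorylated, rose by 0.80, with means of 161 and 91.9 TPM, and H3-3B, an H3.3 gene, rose by 0.86, with means of 346 and 190.3 TPM. H2AZ1 rose by 0.51, H3-3A by 0.34 and H2AZ2 by 0.21, each with groups that did not overlap, and the call on H2AZ2 was lost without MEN1 shRNA replicate 2 or 3 or control replicate 1 or 2. MACROH2A1 fell by 0.91, from 328 ± 19.3 to 176 ± 31.1 TPM.

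CENPA, the centromeric H3, had a difference of 0.11 (adjusted p = 0.311). H2AJ was at 107, 127 and 143 TPM against 67.0, 3.06 and 58.2 TPM, so its difference of 2.31 had an SE of 0.971 and an adjusted p of 0.0801. It passed without control replicate 1 (3.02, adjusted p = 0.0442) and without control replicate 2 (0.99, adjusted p = 0.00158). H1-10 varied within both groups, at 3.59, 68.8 and 4.81 TPM against 5.40, 49.5 and 37.5 TPM, and did not pass. Like H1-4, its libraries range from very low to high within a group.

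**Figure D5:**
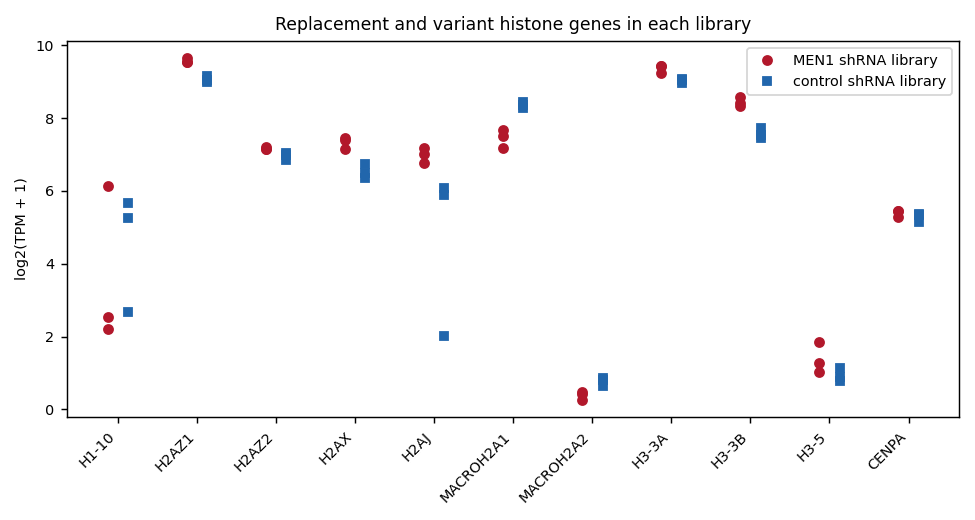
Points give log2(TPM + 1) of 11 replacement and variant histone genes in each library, red circles for MEN1 shRNA and blue squares for control shRNA. H2AX and H3-3B lie higher in all MEN1 shRNA libraries, MACROH2A1 lies lower, and H2AJ has 1 control library, at 3.06 TPM, far below the rest.

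A list of genes for the transcription, processing and turnover of replication-dependent histone mRNA held 5 higher and 15 lower genes of 33, with a median of -0.19. Over all genes tested, lower calls (31.5%) also outnumbered higher ones (22.1%). Of the upstream regulators on this list, NPAT, the coactivator of histone gene transcription, had means of 33.8 and 32.5 TPM (0.06, adjusted p = 0.50). CASP8AP2, a protein of the histone locus body, rose by 0.57. POU2F1 and CRAMP1, other regulators of this list, fell by 0.38 (adjusted p = 0.0415) and 0.47 (adjusted p = 0.00324). HINFP, with a difference of -0.29, did not pass (adjusted p = 0.0586), though its groups did not overlap. The stem-loop binding protein SLBP had means of 148 ± 3.23 and 134 ± 4.11 TPM and rose by 0.15 (adjusted p = 0.0436). That call on SLBP was lost when any 1 of the 6 libraries was left out. LSM11, a subunit of the particle that cleaves histone pre-mRNA, rose by 1.04, from 6.74 to 15 TPM. LSM10, another gene of this list, fell by 0.67 (adjusted p = 0.0022), from 46.9 to 29.3 TPM. ZNF473, also of this list, fell by 0.34 (adjusted p = 0.0165). NELFCD, a subunit of the negative elongation factor, fell by 1.61, from 121 ± 3.79 to 39.7 ± 9.55 TPM. SNRPB and SNRPF, core proteins of spliceosomal and histone-processing particles, fell by 0.67 and 0.48, and SYMPK, a scaffold of the cleavage complex, fell by 0.50.

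Of 23 histone chaperone genes, 5 were higher and 7 lower, with a median of -0.07, close to the 22.1% higher, 31.5% lower and median of -0.07 of all genes tested. NPM1, the abundant nucleolar chaperone, was at 759, 689 and 555 TPM against 2812, 3298 and 3418 TPM and fell by 2.26 (adjusted p = 2.49e-05). The importin IPO4 and the histone-binding protein RBBP7 fell by 1.13 and 0.79. The subunits of the assembly factor CAF-1 split: CHAF1A rose by 0.53 and CHAF1B fell by 0.45. ASF1A, which hands histones to assembly factors, rose by 0.42.

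Other genes expressed in S phase gave 10 higher, 2 lower and 12 not called of 24, with a median of 0.11, against 22.1% higher and 31.5% lower over all genes tested. CCNE2, a cyclin of S-phase entry, was at 64.1, 69.6 and 65.9 TPM against 23.9, 22.0 and 21.9 TPM and rose by 1.52 (adjusted p = 1.59e-05). E2F1, RRM2, FEN1 and CDT1 rose by 0.87, 0.76, 0.59 and 0.41. The 2 lower genes, named after their values were seen, were CCNE1, the other cyclin E gene, which fell by 0.53 from 61.6 to 42.6 TPM (adjusted p = 0.00237), and POLA1, a DNA polymerase subunit, which fell by 0.47. The S-phase median of 0.11 was below the members' median of 0.62, with no test of that difference. Whether the number of cells in S phase moved with the histone genes was not tested.

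The targeted gene followed the labels: MEN1 was at 6.54 ± 0.303 TPM with its shRNA and at 39.3 ± 2.10 TPM in the controls, and fell by 2.42 (adjusted p = 8.54e-06). Depth was estimated from the deposited coverage at 18400000 to 35800000 read pairs per library, which left about 6 to 20 pairs per library behind a low member such as H2AC7. Of 10 erythroid genes, 7 were higher and 0 lower, against 22.1% and 31.5% of all genes tested, and their summed level was 75470 to 83240 TPM with the MEN1 shRNA against 45010 to 49140 TPM in the controls. Of 12 marker genes of other blood cells, 9 were under 1 TPM in every library and 3 were lower, with sums of 25.98 to 31.83 against 50.26 to 55.45 TPM, and MS4A1 and PF4 were listed at 0 throughout. The part of these shifts in the histone values was not tested.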

How the data were processed

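Poly(A)-selected RNA of 6 HUDEP-2 libraries was sequenced with a directional kit, per the labels' protocols. Per the submitters' processing notes, the tools named are FastQC, Trimmomatic, STAR 2.7.1a, Picard 2.20.4 and StringTie 2.0.4 and the build is hg38. The annotation, and whether quantification used strand, are not stated there. Each library has 1 table with, per the file headers, the coverage, FPKM and TPM of 62754 genes as deposited by the authors. The deposited TPM values are scaled to 1000000 per library, so they are shares. In control replicate 2, 2 deposited values carry a negative residue near 0 and were set to 0, so that column was treated as a score on the TPM scale. Coverage and FPKM gave the depth estimate, with 302 bases per read pair.

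Genes with at least 1 TPM in at least 3 of 6 libraries were kept. Differences in log2(TPM + 1) were fitted with limma 3.58.1 in R 4.3.3 (trended variance, 3 against 3 libraries, no replicate block, two-sided), and p-values were adjusted by Benjamini-Hochberg over all 14294 genes. The script was tested on simulated data. Alternatives covered the pseudocount, filter, unit, scaling, variance model, threshold, replicate block and each library left out. Summing near-identical copies was chosen after seeing the data. The members and gene lists were chosen with earlier results of these data known. Named genes were MEN1, all members tested, the 5 most abundant untested members, 10 fixed histone-related genes, up to 6 further called genes per list with the lowest adjusted p, and rows that overlap or copy members. Some genes that this rule names are not reported here. Erythroid and other blood cell markers are given by count and range. MS4A1, PF4, CCNE1, POLA1, POU2F1, HINFP, CRAMP1, LSM10 and ZNF473 were named after their values were seen. Promoters came from RefSeq (GRCh38.p14) and transcripts from GENCODE v29, in which 65 of 69 members were found by identifier.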

Additional observations from a re-analysis of the deposited data

How the results depend on the processing

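Across 157 comparisons of the main counts and ratios with their alternatives, 151 stayed within the limits set for a change. These limits were wide: 5527 genes past a threshold of 0.01, against 7657 in the reported fit, counted as unchanged. All 6 comparisons that moved were counts of higher or lower members. The count of higher members was 22 without the filter on low values, 22 at an adjusted p of 0.01 and 19 with a mean TPM of 5 or more. These settings tested 65, 61 and 31 members. The shares of all genes tested that were higher under them were 8.18%, 15.3% and 24.8%, against 22.1% in the reported fit. Leaving out 1 library at a time gave 26 to 32 higher members, 0 to 1 lower members, 6577 to 7542 genes past the threshold and a ratio of summed member TPM of 2.64 to 3.17. In these fits 18.5% to 21.9% of all genes tested were higher. With the near-identical copies of 3 pairs summed, 32 of 58 features were higher, against 22.1% of all genes tested.

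H3C14, H3C15 and H4C5, none of them called, lay at or slightly above 0 under other scalings, and the cause was not tested. Their SEs in the reported fit were 0.187, 0.195 and 0.232, larger than each difference under these scalings. With FPKM, median-of-ratios scaling, TPM rescaled without globin and mitochondrial genes and quantile normalization, H4C5 was at 0.0082, 0.0538, 0.0357 and 0.0865. H3C14 was at 0.0000, 0.0392, 0.0242 and 0.0240, and at 0.0418 with array weights. H3C15 was at 0.0046, 0.0447, 0.0298 and 0.0260, and at 0.0612 with array weights. When each library was left out in turn, 10 uncalled members changed sign. They were H1-4 (-1.86 to 0.13), H2AC20 (-0.0180 to 0.25), H3C2 (-0.47 to 0.0365), H3C13 (-0.0690 to 0.46), H3C14 (-0.18 to 0.13), H3C15 (-0.17 to 0.15), H4C5 (-0.29 to 0.14), H4C6 (-0.59 to 0.0030), H4C12 (-0.0928 to 0.24) and H4C13 (-0.17 to 0.48). H2AC4 and H3C7 gained a call as higher without MEN1 shRNA replicate 1, H4C11 and H2BC17 without control replicate 1, and H2BC10 and H4C9 without control replicate 3.

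With the replicate number as a block, 28 members were higher, against 20.3% of all genes tested. In that fit 0 members were lower and 7012 genes passed. The deviations of same-numbered libraries correlated at 0.02, -0.03 and -0.01, so the numbers were not taken as pairs. Of all calls, 41.2% were higher in the reported fit and 49.5% with median-of-ratios scaling, where the median of all genes was 0.01 in place of -0.07. Read counts were not used here, so no counting interval is given for low members, and depth limits what can be said of a member such as H2AC7 with about 6 to 20 read pairs per library.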
